A study of Oryza sativa with 6 samples.

Results

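MicroRNA precursors of rice were represented on the array by 510 probes, each covering 1 region of a precursor, among 42418 probes for rice transcripts and precursors. They were chosen by their probe names, which give a microRNA and do not begin with a locus name, a rule that uses no measured value. The 510 regions belong to 170 precursors of 45 families, with 3 regions per precursor, which the names call mature, 5′ and 3′. The precursor named miR531 is listed on both chromosome 8 and chromosome 11, so that the 170 precursors carry 169 names. Each probe was spotted 2 times on every array.

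Each of 6 arrays compared roots of 6-day-old rice seedlings (cv. TN-67) that had received ferulic acid (FA) at 50 ppm with roots kept in water. FA is a phenolic acid that rice itself releases. On the 3 short-exposure arrays, FA RNA was pooled from 1 and 3 h of treatment, and on the 3 long-exposure arrays the treatment lasted 24 h. FA RNA carried Cy5 and control RNA Cy3 on every array, and all seedlings were of the same cultivar and age. The RNA came from root tips according to the methods, which call the replicates biological.

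MicroRNAs of plants are cut out of longer hairpin transcripts, and the mature strand then guides the cleavage or the silencing of messenger RNAs with a matching site. A family shares the same or nearly the same mature sequence, which lies in several precursors whose other stretches differ. The families described here include miR399, known for its part in the response to phosphate starvation, miR395, known for sulphate starvation, miR169, which acts on mRNAs of subunit A of the nuclear factor Y, miR171, which acts on GRAS family transcription factors, and miR168, which acts on the mRNA of ARGONAUTE1, the protein that carries microRNAs. The labelling started from total RNA and amplified it linearly, and hairpin transcript, processing product and mature strand cannot be told apart in these signals.

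Precursor regions were well above background less often than the probes of the array as a whole. Well above background means that the scanner software found the spot signal clearly over the local background. Of the 510 regions, 122 (23.9%) were well above background in both dyes on all 6 arrays, against 61.1% of all probes. In 197 regions (38.6%) neither dye was well above background on any array, against 18.0% of all probes, and the other 191 were so on some of the arrays or in one dye. On single arrays, 154 to 219 regions were well above background in the control dye and 190 to 232 in the FA dye. No region was saturated.

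**Figure D1:**
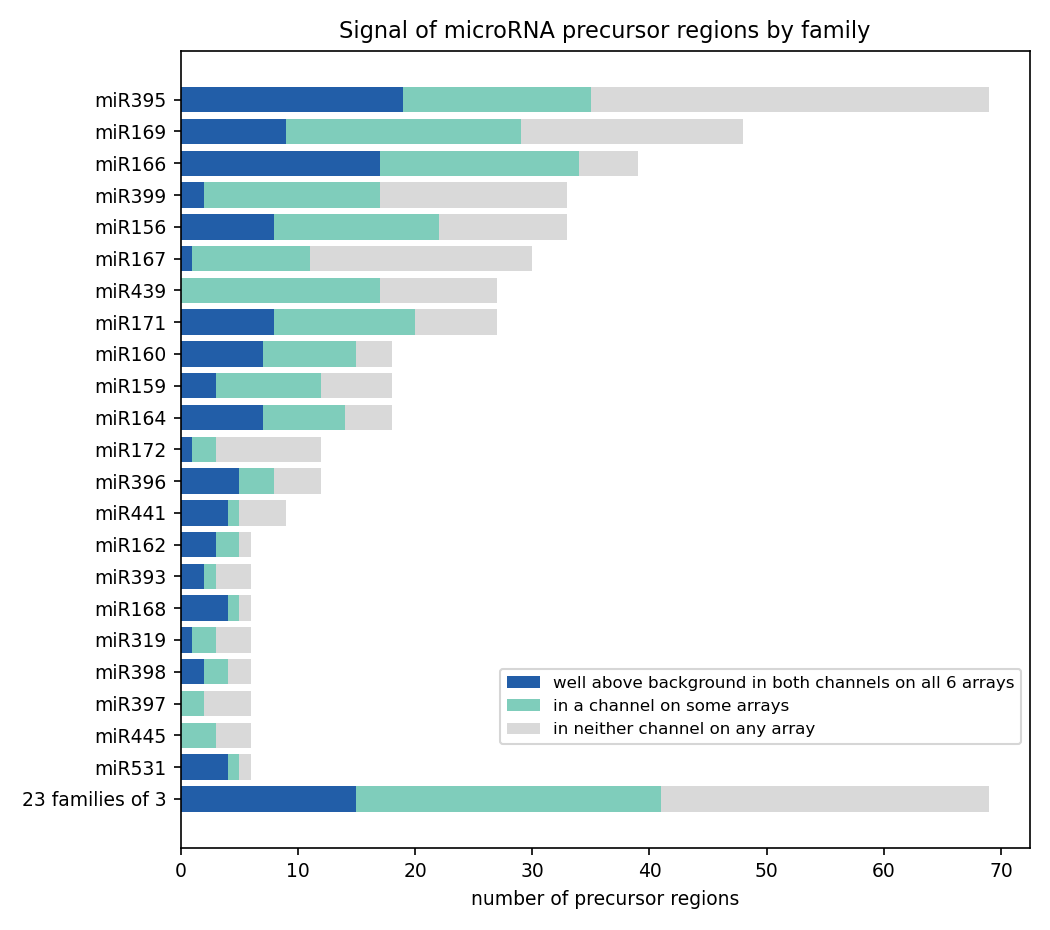
Number of precursor regions per family (bars, in regions), split by signal: well above background in both dyes on all 6 arrays, in a dye on some arrays, or in neither dye on any array. The families with 3 regions are pooled, and miR166 has 17 of its 39 regions in the first class, and miR439 has none of 27.

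Detection differed between families. Of the 69 miR395 regions, 19 were well above background throughout and all 19 were mature regions, whereas 34 were never above background. For miR166, whose targets are class III homeodomain-leucine zipper genes, 17 of 39 regions were well above background throughout and 5 never were. For miR169 it was 9 of 48, for miR156 (which acts on SPL transcription factors) 8 of 33, for miR171 8 of 27 and for miR399 2 of 33. For miR167, which acts on auxin response factors, 1 of 30 regions was well above background throughout, and for miR439 none of 27 was. In 29 of the 45 families at least 1 region was well above background throughout, and in 4 families (miR394, miR420, miR437 and miR529) no region ever was. Mature regions were never above background in 75 of 170 cases, and 5′ and 3′ regions in 61 of 170 each.

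The methods left out genes with signals under 100 in all experiments. Here probes with a signal of at least 100 in either dye on at least 1 array of the exposure, if at least 2 of its arrays gave a ratio, entered a test of the mean log2 (FA/control) against 0. The test was limma's moderated test over all probes with Benjamini-Hochberg adjustment, and upregulated or downregulated refers to regions whose mean ratio changed 2-fold or more with an adjusted p under 0.1. For short exposure 143 regions were tested and 367 were not, and for long exposure 118 were tested and 392 were not. Those left out were too dim or had too few ratios once marked spots were left out. With spots marked as non-uniform kept, 150 and 119 regions were tested. Of the tested regions, 26 reached a signal of 100 on only 1 short-exposure array and 7 on only 1 long-exposure array. Since the filter keeps a region that is bright in one condition only, the tested regions are not a fair sample of the 510.

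After short exposure, 5 of 143 regions were upregulated and 2 downregulated, whereas 6.84% of all 27773 tested probes were upregulated and 2.27% downregulated (9.11% in either direction). After normexp and loess it was 3 up and none down, and without short replicate 2 it was 2 up and 4 down. After long exposure, 5 of 118 regions were upregulated and 5 downregulated, against 1.65% and 0.528% of all 27068 tested probes (2.18% in either direction). These 7 and 10 calls concern 15 regions, and miR416 3′ and miR442 5′ were upregulated in both exposures. With the comparison of the exposures below, 16 regions of 9 families were called.

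Without the fold limit, 59 of 143 regions had a higher and 22 a lower ratio at an adjusted p under 0.1 after short exposure, where 27.7% of all tested probes were higher and 39.4% lower (67.1% in either direction). After long exposure 63 of 118 were higher and 12 lower, against 25.1% and 31.8% (56.9%). The median log2 ratio of the tested regions was 0.13 after short and 0.22 after long exposure, against -0.09 and -0.04 for all tested probes. The median over the 147 regions tested in any comparison lay above that of all probes on each of the 6 arrays, from 0.00 on short replicate 3 to 0.34 on long replicate 1. Short replicate 2 had 0.31, and without it the short-exposure median was 0.04, with 40 regions higher and 25 lower. In bulk RNA, fewer cells that express a transcript and less of it per cell cannot be told apart. FA and control never exchanged dyes, so within an exposure FA and a dye bias cannot be told apart, whereas a bias equal on all arrays cancels in the difference between the exposures.

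**Figure D2:**
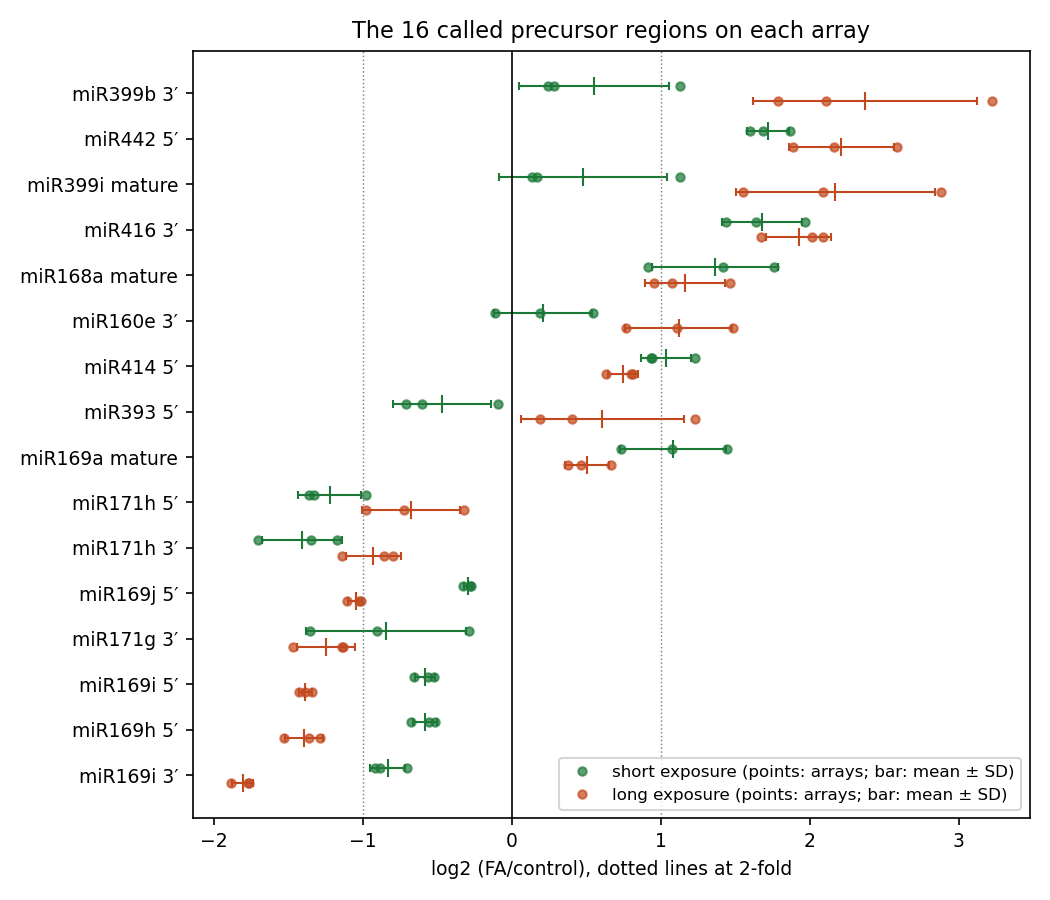
Log2 (FA/control) of the 16 called regions (horizontal axis), with 1 point per array for short and long exposure bars for mean ± SD of 3 arrays and dotted lines at 2-fold. The miR399 regions lie at 1.55 or above on every long-exposure array and at 1.13 or below on every short-exposure array.

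Among regions whose control and FA signals were well above background on all long-exposure arrays, those of miR399 had the largest ratios after long exposure. For miR399b 3′ (chromosome 2), the log2 ratio was 3.22, 2.10 and 1.79 for long replicates 1, 2 and 3, and 0.28, 1.13 and 0.24 for short replicates 1, 2 and 3. The exposures did not overlap, and each contained 1 array well above the other 2. The mean was 2.37 ± 0.75 (SD, n = 3) after long exposure (adjusted p = 0.0019) and 0.55 ± 0.50 after short exposure (adjusted p = 0.0416). Its processed FA signal was 575, 382 and 201 on the long-exposure arrays, against 61.7, 88.9 and 58.3 for the control. After long exposure miR399b 3′ thus passed the signal filter only through the FA dye, in which it was higher. Its adjusted p there does not allow for that selection.

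The mature region of miR399i (also chromosome 2) behaved much like it, with 2.88, 2.08 and 1.55 on the long-exposure arrays. On the short-exposure arrays its ratio was 0.17, 1.12 and 0.14. The order of the arrays was thus the same as for miR399b 3′ in each exposure. The mean of miR399i mature was 2.17 ± 0.67 after long exposure (adjusted p = 0.00183) and 0.48 ± 0.56 after short exposure (adjusted p = 0.0853). By the methods' t-test, with the same limits, neither region was called after long exposure (adjusted p = 0.113 for miR399b 3′ and 0.111 for miR399i mature).

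The other miR399 regions did not follow. miR399c 5′ had a mean of 0.58 ± 0.49 after short and 0.60 ± 0.22 after long exposure (adjusted p = 0.0338 and 0.00464). miR399a 5′ stood at -0.05 after long exposure and miR399f 5′ at -0.04 after short exposure, neither of them with an adjusted p under 0.1. Each rests on 1 array, miR399a 5′ having reached a signal of 100 only on long replicate 2 and miR399f 5′ only on short replicate 2. Of the remaining parts of the miR399b and miR399i precursors, miR399b mature and miR399i 3′ had mean signals of 14.0 and 14.2, both 5′ parts still lower ones, and none was tested. Of the 33 miR399 regions, 16 were never above background.

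Regions of miR169 formed the largest downregulated group after long exposure. miR169i 3′ (chromosome 8) had log2 ratios of -1.89, -1.77 and -1.76 after long exposure and -0.89, -0.70 and -0.92 after short exposure. The 2 exposures did not overlap, and all 6 arrays lay below 0. Its mean was -1.81 ± 0.07 after long exposure (adjusted p = 0.000458) and -0.84 ± 0.12 after short exposure (adjusted p = 0.000563). The control signal of miR169i 3′ was 988, 927 and 662 on the long-exposure arrays, and its FA signal 267, 271 and 195.

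The 5′ region of the same precursor, miR169i 5′, gave -1.39, -1.43 and -1.34 after long exposure and -0.53, -0.57 and -0.66 after short exposure. For miR169h 5′, also on chromosome 8, the ratios were -1.29, -1.53 and -1.36 after long and -0.56, -0.52 and -0.68 after short exposure. miR169j 5′ on chromosome 9 gave -1.01, -1.11 and -1.03 after long and -0.28, -0.33 and -0.28 after short exposure. In each of these regions the ratio was below 0 on all 6 arrays and lower on every long-exposure array than on any short-exposure array. All 4 passed the adjusted p limit after short exposure too (0.000563 to 0.0145), but none reached 2-fold there. After normexp and loess miR169j 5′ was at -0.68 after long exposure, under 2-fold.

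Not all miR169 regions fell. miR169a mature (chromosome 1) was upregulated after short exposure, with 1.07, 1.44 and 0.73 on the 3 arrays. After long exposure it gave 0.46, 0.37 and 0.66, so that the exposures did not overlap here either. The mean of miR169a mature was 1.08 ± 0.35 after short exposure (adjusted p = 0.00146) and 0.50 ± 0.15 after long exposure (adjusted p = 0.00441), and without short replicate 2 the former was 0.90, under 2-fold. miR169n 3′ was higher in both exposures (0.44 and 0.33), as was miR169p 3′ (0.46 and 0.70). In all, 3 of the 9 miR169 regions tested after short exposure had a higher and 5 a lower ratio at an adjusted p under 0.1, and after long exposure 3 of 7 were higher and 4 lower. The shares of all probes were 27.7% and 39.4% after short exposure and 25.1% and 31.8% after long exposure.

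Downregulated miR171 regions came from 2 precursors. miR171h 5′ (chromosome 4) had ratios of -1.33, -0.98 and -1.36 after short exposure and -0.33, -0.72 and -0.98 after long exposure. miR171h 3′ gave -1.35, -1.18 and -1.71 after short and -0.86, -0.80 and -1.14 after long exposure. In both regions all arrays lay below 0. The exposures just touched for miR171h 5′ and did not overlap for miR171h 3′. The short-exposure means were -1.22 ± 0.21 for miR171h 5′ and -1.41 ± 0.27 for miR171h 3′ (adjusted p = 0.000312 and 0.000306).

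Signals of miR171h 3′ were low, with 75.6, 42.5 and 111 in the control dye on the short-exposure arrays and 29.7, 18.8 and 35.2 in the FA dye. It was well above background in 2 of 3 short-exposure arrays in each dye and too dim to be tested after long exposure. It passed the signal filter only through the control dye of short replicate 3, the array with its lowest ratio. Without that array miR171h 3′ was too dim to be tested after short exposure as well. With the raw signals corrected by normexp and normalized by loess, its ratio was -0.60 and that of miR171h 5′ -0.74, both under 2-fold.

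miR171g 3′ (chromosome 7) was downregulated after long exposure, with -1.14, -1.14 and -1.47 on the 3 arrays. After short exposure it gave -0.91, -0.29 and -1.36, a much wider spread. The means of miR171g 3′ were -1.25 ± 0.19 (adjusted p = 0.00101) and -0.85 ± 0.54 (adjusted p = 0.0114), and without short replicate 2 the latter was called. Other miR171 regions lay on the other side of 0, among them miR171a mature (0.72 ± 0.59 after short and 0.59 ± 0.22 after long exposure) and miR171b 5′ (0.32 ± 0.20 and 0.45 ± 0.14). After short exposure 2 of 11 tested miR171 regions were higher and 5 lower at an adjusted p under 0.1, beside 27.7% and 39.4% of all probes.

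Regions upregulated in both exposures were miR416 3′ and miR442 5′, both on chromosome 4. miR416 3′ gave 1.63, 1.96 and 1.44 after short exposure and 2.09, 2.01 and 1.67 after long exposure. All arrays lay above 2-fold, and the exposures overlapped. Its means were 1.68 ± 0.27 and 1.92 ± 0.22 (adjusted p = 0.000164 and 0.000519). Its control signal was 51.4 to 91.1 and its FA signal 166 to 247 over the 6 arrays, all well above background. miR416 3′ thus passed the signal filter only through the FA dye, in which it was higher. Its adjusted p values do not allow for that selection.

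For miR442 5′ the control was well above background on 1 of 3 short-exposure arrays and on none of the long-exposure arrays. Its ratio after short exposure was 1.87, 1.69 and 1.60 (mean 1.72 ± 0.14, adjusted p = 5.57e-05). After long exposure only a bound can be given for miR442 5′, which was at least 1.96-fold higher (adjusted p = 0.000696). This adjusted p belongs to the processed ratio, a mean of 2.21. The bound takes the mean log2 FA signal against, array by array, the higher of the region's own control signal and the lowest signal of any probe well above background, after normexp, loess and Aquantile normalization, and is open to dye bias. Its own control signal was the higher, so the bound equals the ratio after normexp and loess, which was 0.97 on the log2 scale. After short exposure, where 2 control values were not well above background, that ratio was 0.77. Both are under 2-fold, and without short replicate 2 or long replicate 1 it was too dim to be tested in that exposure.

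miR414 5′ (chromosome 11) and miR168a mature (chromosome 2) were called after short exposure. miR414 5′ gave 0.94, 1.23 and 0.93 after short and 0.81, 0.63 and 0.80 after long exposure, without overlap. Its mean of 1.03 ± 0.17 (adjusted p = 0.000406) lay at the fold limit and was 0.93 without short replicate 2. miR168a mature gave 1.41, 1.76 and 0.91 after short exposure and 0.95, 1.46 and 1.07 after long exposure, so that the exposures overlapped. The mean of miR168a mature was 1.36 ± 0.42 after short exposure (adjusted p = 0.00105), and it was too dim to be tested after long exposure. After normexp and loess it was 0.74, under 2-fold.

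Last, miR160e 3′ (chromosome 7) of the miR160 family, which acts on auxin response factors, was upregulated after long exposure, with 1.48, 1.11 and 0.77. After short exposure it gave 0.19, 0.55 and -0.11, below every long-exposure array. The long-exposure mean of miR160e 3′ was 1.12 ± 0.36 (adjusted p = 0.00226). The methods' t-test gave an adjusted p of 0.114, and the ratio was under 2-fold after normexp and loess (0.94) and without long replicate 1 (0.94).

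The parts of one precursor were compared next, since they belong to the same transcript. They are not replicates, and only ratios are set side by side here, because the signal of one probe cannot be set against that of another. In 34 precursors at least 2 parts were tested after short exposure, and their mean ratios spanned 0.31 in the median, with 25 precursors under 0.5 and 4 at 1 or more. After long exposure it was 27 precursors with a median span of 0.20, 21 of them under 0.5 and 1 at 1 or more.

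**Figure D3:**
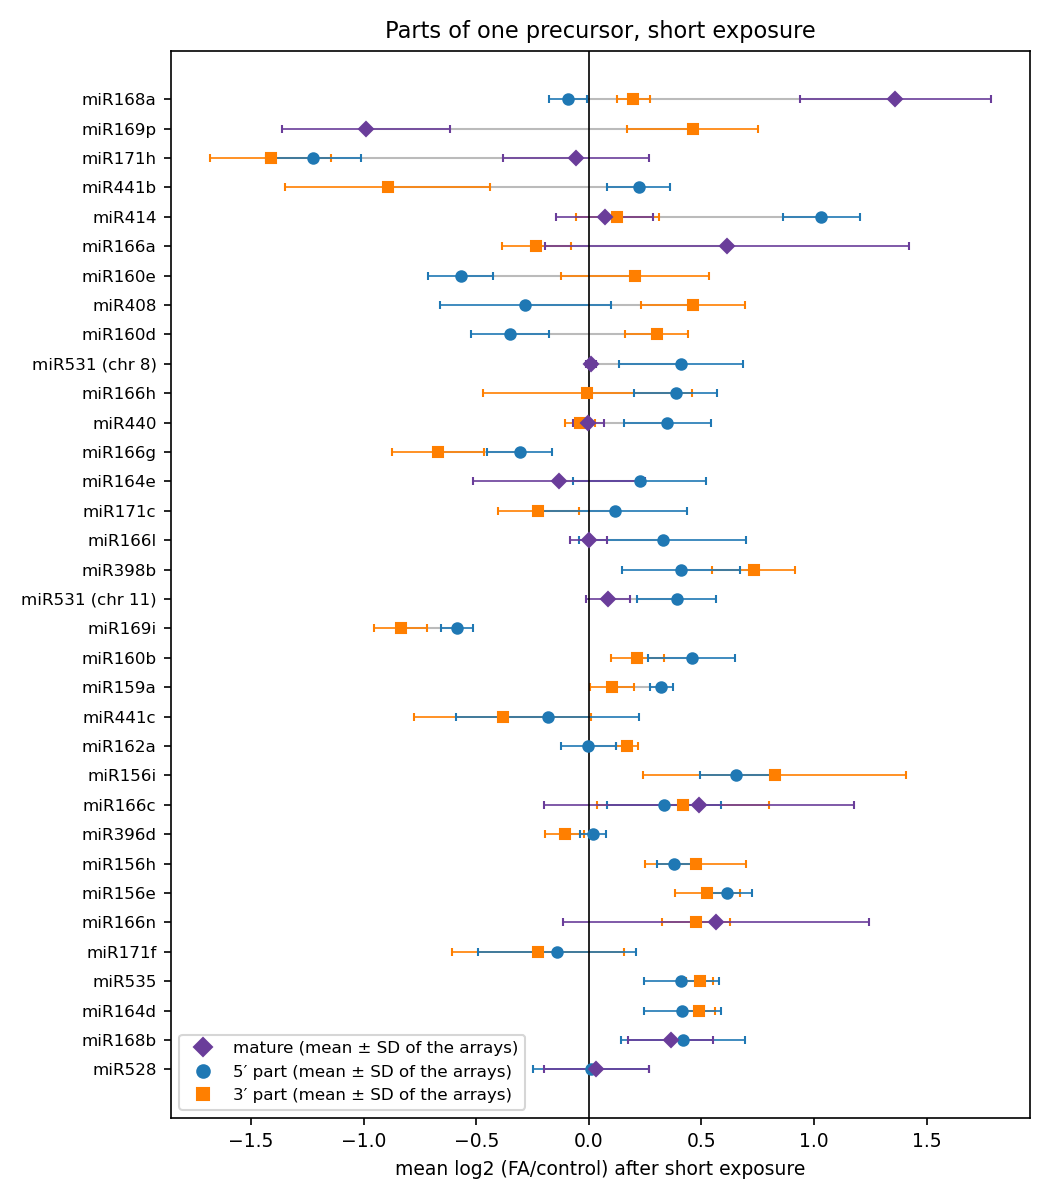
Mean log2 (FA/control) after short exposure (horizontal axis, ± SD over the arrays) of each tested part of the 34 precursors with at least 2 tested parts, ordered by the span between the parts. miR168a has the widest span, 1.45, and miR528 the narrowest, 0.02.

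The widest span was that of miR168a, whose mature part was dim (mean signal 72.0). Its 3′ and 5′ parts gave smaller ratios than its mature part, with 0.22, 0.12 and 0.26 for the 3′ part and -0.00, -0.11 and -0.17 for the 5′ part on the short-exposure arrays. The means of both parts, 0.20 ± 0.07 and -0.09 ± 0.08, lay below the lowest array of miR168a mature (0.91). After long exposure miR168a 3′ was higher at 0.43 ± 0.07 (adjusted p = 0.0038) and miR168a 5′ stood at 0.02 ± 0.10. These values depend on the processing. After normexp and loess the short-exposure ratios were 0.74 for miR168a mature, 0.56 for miR168a 3′ and 0.17 for miR168a 5′, which narrows the span. After long exposure they were 0.75 for miR168a 3′ and 0.29 for miR168a 5′, the latter now with an adjusted p under 0.1 (0.0157).

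Other precursors split in the same manner. In miR171h the mature part gave -0.32, 0.30 and -0.15 after short exposure, above every array of the 5′ and 3′ parts. In miR414 the 3′ part stood at 0.13 ± 0.18 and the mature part at 0.07 ± 0.22 after short exposure, below every array of the 5′ part. In miR160e the 5′ part was lower after short exposure (-0.57 ± 0.14, adjusted p = 0.00266) and stood at -0.10 ± 0.16 after long exposure, where the 3′ part was upregulated.

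After short exposure the means of the parts lay on both sides of 0 in 14 of the 34 precursors, and in 3 of these a part was higher and another lower at an adjusted p under 0.1. miR169p mature gave -1.42, -0.73 and -0.82 after short exposure, whereas miR169p 3′ gave 0.56, 0.69 and 0.13. Their means of -0.99 ± 0.37 and 0.46 ± 0.29 both passed the adjusted p limit (0.00229 and 0.0187) and neither reached 2-fold. miR441b 3′ stood at -0.89 ± 0.45 (adjusted p = 0.00572) and miR441b 5′ at 0.22 ± 0.14 (adjusted p = 0.0661). For miR160d the 5′ part was lower in both exposures (-0.35 and -0.29) and the 3′ part higher in both (0.30 and 0.57), each with an adjusted p under 0.1.

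In most precursors the parts lay close together. The miR156h parts gave 0.38 ± 0.08 (5′) and 0.48 ± 0.22 (3′) after short exposure, and 0.49 ± 0.05 and 0.78 ± 0.16 after long exposure. In miR164d, of a family that acts on NAC transcription factors, they were 0.41 ± 0.17 and 0.49 ± 0.07 after short exposure and 0.44 ± 0.09 and 0.65 ± 0.13 after long exposure. In miR535 the parts were 0.08 apart after short exposure and 0.02 after long exposure.

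The 2 copies of miR531 gave almost equal values. The 5′ part of the copy on chromosome 8 stood at 0.41 ± 0.27 after short and 0.89 ± 0.28 after long exposure, and that on chromosome 11 at 0.39 ± 0.18 and 0.86 ± 0.33. Their mature parts gave 0.01 ± 0.02 and 0.09 ± 0.10 after short exposure and 0.10 ± 0.18 and 0.13 ± 0.20 after long exposure. Both 5′ parts passed the adjusted p limit in both exposures, and neither mature part did in either. After normexp and loess both mature parts did, with 0.29 (chromosome 8) and 0.34 (chromosome 11) after short exposure (adjusted p = 0.0103 and 0.00808) and 0.44 and 0.45 after long exposure (adjusted p = 0.00576 and 0.00697). Probe sequences were not used here, and how far such copies, or mature parts of a family, are separate measurements was not tested.

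**Figure D4:**
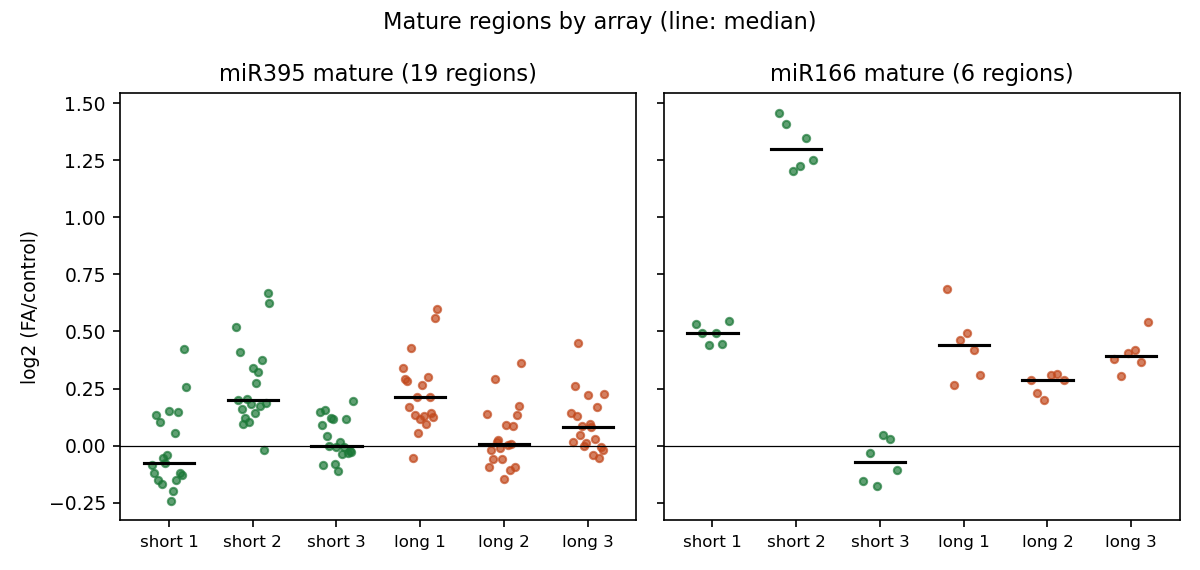
Log2 (FA/control) of the mature regions well above background in both dyes on all 6 arrays, for miR395 (19 regions) and miR166 (6 regions), by array; each point is 1 region and the line is the median. The miR166 regions are highest on short replicate 2, from 1.20 to 1.46.

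The 19 mature miR395 regions had medians of -0.08, 0.20 and -0.00 after short exposure and 0.21, 0.01 and 0.08 after long exposure. None of the 21 miR395 regions tested after short exposure was called, their means running from -0.07 to 0.53 (miR395t 3′), and 4 of them had an adjusted p under 0.1, all higher. After long exposure it was 4 of 18, again all higher and none 2-fold, the highest being miR395w mature at 0.40. Of all probes, 27.7% were higher and 39.4% lower (short), and 25.1% and 31.8% (long). Mature regions made up 20 of the 21 tested after short exposure.

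The 6 mature miR166 regions had medians of 0.49, 1.30 and -0.07 on the short-exposure arrays, with short replicate 2 apart from the others. On the long-exposure arrays they were 0.44, 0.29 and 0.39. Their short-exposure means were 0.49 to 0.62 with adjusted p from 0.0539 to 0.127, under 0.1 for 4 of the 6, whereas their long-exposure means of 0.27 to 0.45 all passed the adjusted p limit. Of all probes, 27.7% were higher after short and 25.1% after long exposure. miR166g 3′ was the miR166 region with the largest short-exposure change (-0.67 ± 0.20, adjusted p = 0.00243) and stood at -0.10 ± 0.14 after long exposure.

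Regions of miR156 were higher in both exposures more often than lower. After short exposure 8 of 11 tested regions were higher at an adjusted p under 0.1 and none was lower, and after long exposure it was 7 of 10 and none. For all probes the shares higher and lower were 27.7% and 39.4% (short) and 25.1% and 31.8% (long). The largest was miR156d 3′, with 0.91, 1.21 and 0.82 after short exposure and 0.98, 0.72 and 0.85 after long exposure. Its mean of 0.98 ± 0.20 (adjusted p = 0.000624) lay just under the fold limit and passed it when short replicate 1 or short replicate 3 was left out or the arrays were centred. After long exposure its mean was 0.85 ± 0.13 (adjusted p = 0.00132).

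Other regions well above background on all arrays changed by less than 2-fold. miR164f 5′ stood at 0.34 ± 0.08 after short exposure (adjusted p = 0.0103) and 0.09 ± 0.06 after long exposure (0.26 after normexp and loess, adjusted p = 0.0122), and miR164b 3′ at -0.12 ± 0.10 and 0.26 ± 0.21. For miR159, which acts on MYB genes, miR159a 5′ gave 0.32 ± 0.05 and 0.41 ± 0.24. The parts of miR171f gave -0.14 ± 0.35 and 0.14 ± 0.23 (5′) and -0.22 ± 0.38 and -0.01 ± 0.12 (3′). Without short replicate 2 the short-exposure values of miR171f were -0.34 (5′) and -0.44 (3′), with an adjusted p of 0.0223 and 0.0106. miR166m 5′ stood at 0.67 ± 0.25 and 0.61 ± 0.12, and miR166h 5′ at 0.39 ± 0.18 and 0.40 ± 0.13, all with an adjusted p under 0.1. Lower values were found for miR396b 3′, at -0.42 ± 0.16 after short exposure (adjusted p = 0.00864) and -0.10 ± 0.24 after long exposure. miR408 3′ gave 0.46 ± 0.23 and 0.55 ± 0.13, and miR408 5′ -0.28 ± 0.38 and -0.34 ± 0.13. miR528 mature stood at 0.03 ± 0.23 and -0.06 ± 0.09, with an adjusted p over 0.1 in both exposures. miR398b 3′ was higher in both (0.73 ± 0.18 and 0.69 ± 0.19), miR398 and miR408 belonging to families known from the response to copper shortage.

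The 116 tested regions that were well above background in both dyes on all 6 arrays had short-exposure means from -1.22 to 1.68, and after long exposure the 109 tested ones ran from -1.81 to 2.17. They include 4 of the 7 short-exposure calls and 8 of the 10 long-exposure calls.

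Whether the ratio depends on the duration of exposure was tested on all 6 arrays as short minus long. Of 147 regions tested, none was called higher after short exposure and 3 were called lower, whereas 5.77% and 2.5% of all 28357 tested probes were (8.27% in either direction). Without the fold limit 8 regions were higher and 24 lower, against 20.6% and 26.1% of all tested probes (46.7% in either direction), and 32 of the 147 had an unadjusted p under 0.05. After normexp and loess it was 13 higher and 17 lower. Short replicates 1 and 2 shared a slide, short replicate 3 was on another and the long-exposure arrays on yet another, so slide and exposure cannot be told apart in this comparison.

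**Figure D5:**
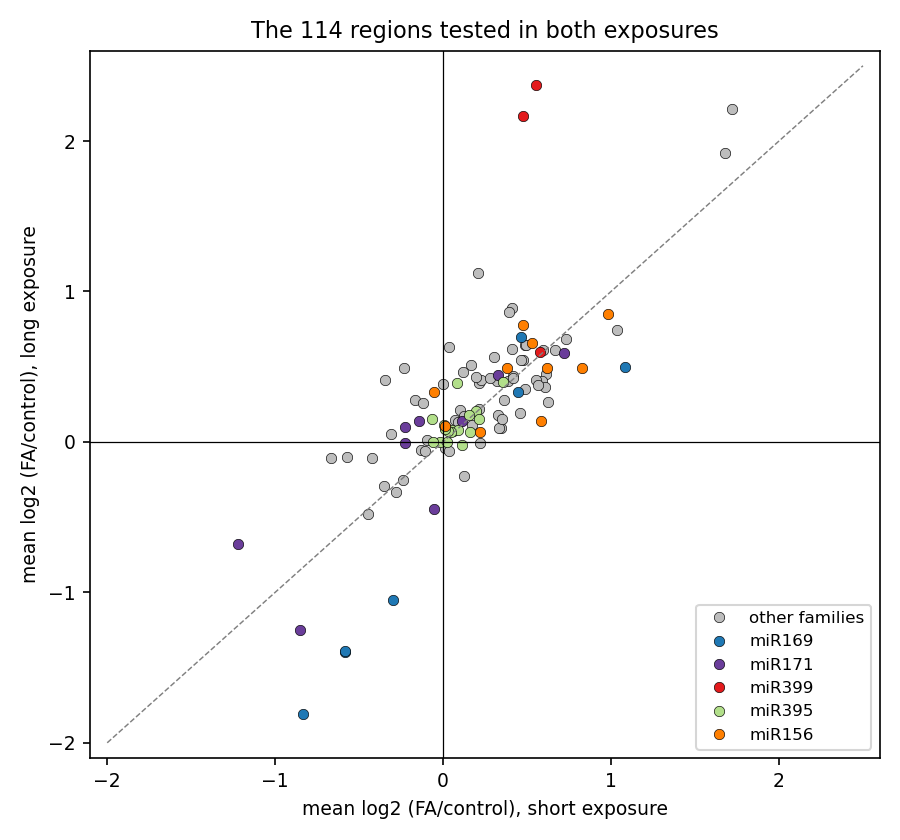
Mean log2 (FA/control) after short exposure (horizontal axis) against that after long exposure (vertical axis) for the 114 regions tested in both, coloured by family, while the dashed line marks equal ratios. miR399b 3′ and miR399i mature lie far above the line and 4 miR169 regions below it.

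The 3 called regions were miR399b 3′, miR399i mature and miR393 5′. For miR399b 3′ the difference was -1.82 ± 0.40 (SE, adjusted p = 0.0112), and for miR399i mature it was -1.69 ± 0.38 (adjusted p = 0.0129). miR393 5′ (chromosome 1), of a family that acts on mRNAs of the auxin receptor TIR1, gave -0.71, -0.09 and -0.61 after short exposure and 1.23, 0.18 and 0.40 after long exposure. It lay below 0 on every short-exposure array and above 0 on every long-exposure array, and the difference was -1.08 ± 0.29 (SE, adjusted p = 0.0234). Its signals were 28.5 to 48.2 on the short-exposure arrays, where it was too dim to be tested alone, and 44.7 to 115 on the long-exposure arrays. Leaving out short replicate 1 or long replicate 1 brought miR393 5′ under 2-fold (-0.96 and -0.77), as did normexp and loess (-0.48), and the methods' t-test gave an adjusted p of 0.106.

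The 3′ part of the same precursor, miR393 3′, gave -0.18, -0.20 and -0.67 after short and 0.77, 0.20 and 0.26 after long exposure. The difference of -0.76 had an adjusted p of 0.0201. It was lower after short exposure (-0.35 ± 0.27, adjusted p = 0.0424) and higher after long exposure (0.41 ± 0.31, adjusted p = 0.0323), and only miR166a 3′ (-0.23 and 0.49) also passed in these 2 directions. No region was higher after short and lower after long exposure at this limit, while 45 were higher and 8 lower in both, of 114 regions tested in both. The matching shares over the whole array were not computed. Whether precursor regions differ from other probes in these counts was therefore not tested.

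The miR169 regions that fell had the smallest adjusted p of the comparison. The difference was 0.97 ± 0.09 (SE) for miR169i 3′ (adjusted p = 0.000432), 0.81 ± 0.10 for miR169h 5′ (adjusted p = 0.00107), 0.80 ± 0.08 for miR169i 5′ (adjusted p = 0.00054) and 0.76 ± 0.08 for miR169j 5′ (adjusted p = 0.000578). All 4 stayed under 2-fold. With each array centred on its median, miR169i 3′ passed the fold limit, giving 1 region higher and 3 lower.

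Genes known as targets of these families were taken from a list of 74 loci, of which the 23 that the study's tables annotate are described. The study's tables include lists of genes that responded to FA, so which loci were annotated can depend on these data. The 23 comprise auxin response factors (miR160, miR167), CCAAT-HAP2 genes (miR169), AP2/ERF genes (miR172), TIR1 genes (miR393), a sulphate transporter (miR395) and a NAM domain gene (miR164). Of 19 tested after short exposure, 3 were higher and 8 lower at an adjusted p under 0.1, 1 of each by at least 2-fold, beside 27.7% of all probes higher and 39.4% lower (6.84% and 2.27% by 2-fold). After long exposure 4 of 20 were higher and 9 lower, none by 2-fold, beside 25.1% and 31.8% of all probes.

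The high-affinity sulphate transporter gene Os03g0195800 was upregulated after short exposure, with 0.71, 2.14 and 1.68 (mean 1.51 ± 0.73, adjusted p = 0.00389), and stood at 0.40 ± 0.38 after long exposure. The mature miR395 regions on the same short-exposure arrays had medians from -0.08 to 0.20. The NAM domain gene Os08g0200600 was downregulated after short exposure, with -1.28, -1.34 and -1.19 (mean -1.27 ± 0.08, adjusted p = 0.000101), and stood at -0.41 ± 0.44 after long exposure. The mean signal of the NAM domain gene was 121. Of the 7 tested miR164 regions, 4 were higher and none lower at an adjusted p under 0.1 after short exposure. Only 1 of the 4 was a mature region, and of all probes 27.7% were higher and 39.4% lower.

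Among the auxin response factor genes of miR160, OsARF18 fell by 0.55 on the log2 scale after short exposure (adjusted p = 0.00238). All 3 tested genes of this group were then lower at an adjusted p under 0.1, and 1 of 3 was after long exposure. Of the auxin response factor genes of miR167, 3 of 4 were lower after short and 4 of 4 after long exposure, none by 2-fold. The AP2/ERF-57 gene stood at -0.64 ± 0.19 after short exposure (adjusted p = 0.00255). Of the CCAAT-HAP2 genes, 2 of 5 tested after short exposure were higher and none lower, CCAAT-HAP2-2 being at 0.54 ± 0.20. After long exposure, when the 4 miR169 regions were downregulated, 2 of 6 CCAAT-HAP2 genes were higher and 1 lower, their means running from -0.22 to 0.37. Whether any target responded to its microRNA was not tested.

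Beyond these regions, the arrays were checked in brief. The 3 short-exposure arrays and the 3 long-exposure arrays had similar shares of probes well above background (68.1% to 74.1% in the control dye and 70.6% to 75.8% in the FA dye). The NOD26-like root gene Os02g0745100 had signals of 8458 to 49941, well above background in both dyes on all arrays, and the iron-regulated transporter gene Os03g0667500, also well above background throughout, had 58.4 to 169. Spots of one region were compared where both were unmarked and well above background in both dyes, in 121 to 160 regions per array. The 2 spots of such a region differed in log2 ratio by 0.10 to 0.13 in the median of each array. The largest difference on an array was 0.64 to 0.88.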

How the data were processed

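Root RNA of rice seedlings, FA (Cy5) against water (Cy3), was hybridised to 6 two-colour Agilent arrays. The authors extracted the spots with Agilent's Feature Extraction (10.7.1.1 per the file headers), which subtracts background, removes trends and balances the dyes. Deposited were the processed intensity of each dye, the raw median intensity of spot and local background, flags of 0 or 1 (other), and the log10 ratio of red over green, set to 0 where neither dye was significant. The authors also deposited a table of log2 ratios, which equals log2 of the processed signals and served as an alternative.

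Ratios were converted to log2 (FA/control), spots marked as non-uniform or outlying were left out, and spots of one probe were averaged. limma 3.58.1 in R 4.3.3 fitted all probes passing the filter (signal of at least 100, ratios on at least 2 arrays). A gene took its brightest probe. A probe counted as well above background where either of its spots was. By rule, the called regions, the 30 brightest of those well above background on all arrays, the region of largest short-exposure change per family and tested parts of one precursor are named. The rule for the precursor probes uses names only, but that these members and lists were taken up was decided with earlier results of these data known. On simulated data with 200 changed probes, 192, 191 and 189 were called for short, long and short minus long, with 2, 4 and 3 unchanged ones among 27773, 27068 and 28357 probes. These counts do not give the share called among probes close to the fold limit, which was not tested. With arrays, precision is set by how many there were, here 3 per exposure. Python 3.11.15 with pandas 2.3.3, numpy 2.4.6 and matplotlib 3.10.9 served for tables and plots. Alternatives were another background correction and normalization, centring, the value table, other signal filters, each replicate left out, slide and replicate blocks, the methods' t-test, no fold limit and 1 fit over all arrays. A fit that kept non-uniform spots was chosen after seeing the data. Sequences of the probes, and list loci that the sources do not annotate, were not used here.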

Additional observations from a re-analysis of the deposited data

Results flagged for a closer look

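In 3 regions the ratio differed between the short and the long exposure past both limits when the difference itself was tested on all 6 arrays (limma). The difference, short minus long, was -1.82 for miR399b 3′ (lower on all 3 short-exposure arrays than on any long-exposure array), -1.69 for miR399i mature (likewise) and -1.08 for miR393 5′, which lay below 0 on all short-exposure arrays and above 0 on all long-exposure arrays. miR393 5′ had signals of 28.5 to 48.2 on the short-exposure arrays and passed the signal filter only through the long-exposure arrays, where it was higher. Its call was lost after normexp and loess (-0.48), by the methods' t-test (adjusted p = 0.106) and without short replicate 1 (-0.96) or long replicate 1 (-0.77). Slide and exposure cannot be told apart in these values. Groups of 3 arrays are too small to look for single outlying arrays.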

How the results depend on the processing

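The 7 short-exposure calls became 3 after normexp and loess, 4 with a signal of 100 required on every array, 12 with probes well above background on every array, 15 without a signal filter and 81 without the fold limit. The 10 long-exposure calls became 17 with probes well above background on every array, 21 without a signal filter and 75 without the fold limit. The 3 differences between exposures became 1 with a signal of 100 on every array, 14 without a signal filter and 32 without the fold limit. Fewer or more regions enter under the signal filters, and the cause of the loss after normexp and loess was not tested. Leaving out 1 array gave 6 to 8 short-exposure calls, 8 to 10 long-exposure calls and 2 to 4 differences. Without short replicate 2, 4 of the 7 short-exposure calls were kept and 2 others added, which made 2 higher and 4 lower instead of 5 and 2. The other settings gave counts within 1.5 times the main ones.

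With the scanner's test for a significantly positive spot in place of well above background, 206 regions were measured in both dyes on all 6 arrays instead of 122. Of the single regions compared, only miR168a 5′ after short exposure changed sign while its adjusted p fell under 0.1. It stood at 0.17 after normexp and loess (adjusted p = 0.0698), under 2-fold, and was called in neither fit. Same-numbered arrays of the exposures are not said to share a day or batch. Correlations of their deviations were -0.08, -0.01 and 0.14, and those of differently numbered arrays ran from -0.24 to 0.26. These values cannot tell whether a day or batch was shared. The replicate block in the comparison of the exposures kept all 3 calls. Slide as a random block kept all 3 too and could not be fitted within 1 exposure. Ratios moved after normexp and loess in dim regions and in bright ones such as miR531 mature and miR168a 5′. Which step moved them was not tested. This limits what can be said of dim regions and of small changes.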

Other observations

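The mature region of miR171g was left out of every comparison because 11 of its 12 spots were marked as non-uniform. Its signals were 8550 to 15672. With these spots kept, its log2 ratios were -0.31, 0.27 and -0.12 after short exposure and -0.18, -0.45 and -0.74 after long exposure. Those of miR171h mature were -0.32, 0.30 and -0.15, and -0.10, -0.47 and -0.76. Keeping non-uniform spots changed none of the 3 counts of calls.

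The 2 spots of the mature miR395 regions differed in control signal on some arrays. On short replicate 1 the median fold between the spots was 2.10 (first over second, 1.05 to 3.72 over the 18 regions compared), with 10 regions at 2-fold or more, and on short replicate 2 it was 1.51, with 5 regions at 2-fold or more. On the other 4 arrays the median was 1.01 to 1.11, with no region at 2-fold. On short replicate 1 the median log2 ratio was -0.27 for the first spots and 0.08 for the second.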
